A study of Mus musculus with 9 samples.

Results

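The Fanconi anaemia genes *Fanca*, *Fancb*, *Fancc*, *Fancd2*, *Fance*, *Fancf*, *Fancg*, *Fanci*, *Fancl* and *Fancm* were followed by RNA-seq in naïve mESCs, in the primed mEpiSCs converted from them and in MEFs. They were taken by symbol, as 10 of the 54232 mouse gene IDs counted, and all 10 passed the filter on low counts in every comparison. The cells came from 1 line of C57 x CBA mESCs carrying OG2, a GFP reporter driven by the distal *Oct4* promoter. Naïve cells were grown in serum and LIF and primed cells in bFGF and Activin A, each at P5 and P15 with 2 libraries per group. Both states grew on feeder cells, namely MEFs treated with mitomycin C, and 1 library was made from MEFs alone. The authors describe their CPM values as coming from biological repeats, but the labels do not say whether the 2 libraries of a group came from separate cultures. The p-values therefore measure only the spread between these libraries.

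Interstrand crosslinks tie both strands of DNA together and stop replication forks, and the Fanconi anaemia pathway is the main route for their repair. FANCM recognises the stalled fork and anchors the core complex, a ubiquitin ligase built from FANCA, FANCB, FANCC, FANCE, FANCF, FANCG and FANCL, in which FANCL works with the conjugating enzyme UBE2T. The complex ubiquitinates the FANCD2-FANCI clamp, which brings in nucleases, translesion polymerases and recombination proteins, and USP1 with WDR48 removes the ubiquitin again. In people, inherited loss of many, though not all, genes of this pathway causes bone marrow failure, chromosome breakage and a predisposition to cancer.

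In primed cells 6 of the 10 genes were lower than in naïve cells at P5 (*Fanci*, *Fancm*, *Fanca*, *Fancd2*, *Fancc* and *Fancl*) and 4 at P15 (*Fanci*, *Fancm*, *Fanca* and *Fancd2*), and none was higher at either passage. The percentages of all tested genes called lower were 31.1% at P5 and 28.4% at P15, and 31.2% and 28.2% were called higher. *Fanci* was lowest relative to naïve cells, at 42.5% of the naïve level at P5 and 33.6% at P15. The 6 genes called at P5 come from the clamp, the anchor and each of the 3 modules of the core complex. A call here means that edgeR's quasi-likelihood test gave an adjusted p under 0.01, where the Benjamini-Hochberg adjustment ran over all genes tested (16482 at P5, 15733 at P15). A negative log2 fold change means lower expression in primed cells, and ± after a log2 fold change is its standard error. Levels are CPM, counts brought to a common library size by TMM scaling, with the SD of 2 libraries.

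Before the values, promoter sequence is shown for the 4 members whose RefSeq start coincides with the GENCODE start: *Fanca* and *Fancm*, which fell at both passages, and *Fancb* and *Fancf*, which were called at neither. Each line holds the 250 bases before the start on the strand of the gene (GRCm38.p6, RefSeq), with CCAAT in capitals. The windows are chr8:123318577-123318826 for *Fanca* (minus strand), chr12:65075353-65075602 for *Fancm* (plus), chrX:164980342-164980591 for *Fancb* (plus) and chr7:51862268-51862517 for *Fancf* (minus).
Fanca: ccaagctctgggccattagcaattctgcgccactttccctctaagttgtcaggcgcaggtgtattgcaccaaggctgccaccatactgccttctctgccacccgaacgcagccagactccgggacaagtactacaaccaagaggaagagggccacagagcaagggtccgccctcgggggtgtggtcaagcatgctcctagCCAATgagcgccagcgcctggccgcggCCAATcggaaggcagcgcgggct
Fancm: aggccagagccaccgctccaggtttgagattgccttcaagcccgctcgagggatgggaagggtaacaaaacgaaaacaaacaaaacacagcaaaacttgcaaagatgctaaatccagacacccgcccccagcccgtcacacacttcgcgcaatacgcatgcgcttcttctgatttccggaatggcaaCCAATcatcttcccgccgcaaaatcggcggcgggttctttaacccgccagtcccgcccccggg
Fancb: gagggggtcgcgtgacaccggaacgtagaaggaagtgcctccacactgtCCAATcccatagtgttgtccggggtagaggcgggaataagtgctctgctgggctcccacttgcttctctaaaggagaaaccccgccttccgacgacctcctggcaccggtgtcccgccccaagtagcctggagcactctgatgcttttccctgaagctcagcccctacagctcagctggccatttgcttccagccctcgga
Fancf: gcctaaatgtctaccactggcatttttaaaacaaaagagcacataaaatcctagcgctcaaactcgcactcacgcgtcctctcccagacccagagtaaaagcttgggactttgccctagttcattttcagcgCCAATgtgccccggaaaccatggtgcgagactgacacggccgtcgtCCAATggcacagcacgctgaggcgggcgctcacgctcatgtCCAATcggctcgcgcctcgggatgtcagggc

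CCAAT, the letters bound by the factor NF-Y, was found 50 and 23 bases before the start of *Fanca*, 63 bases before that of *Fancm*, 201 bases before that of *Fancb* and 118, 72 and 31 bases before that of *Fancf*. Windows of 300 bases, with 50 bases after the start, were searched on both strands for 9 members. CCAAT stood in 6 of them (also in *Fancc* and *Fance*, reversed) and in 37.4% of the 32851 windows of all genes. At least 3 matches, as in *Fancf*, occurred in 3.37% of all windows. The E2F motif TTTCCCGC was in 1 member, *Fancg*, 52 bases before the RefSeq start, and in 1.07% of all windows. TTTGGCGC, another E2F motif, was in none of the 9 and in 0.514% of all windows, and the CHR motif TTTGAA of late cell cycle genes was in none and in 17.9%. None of the searched motifs contains another, and a match describes letters only. Matches were exact, so that variants of a motif were not counted, such as cttcccgc in the window of *Fancm*. GC content was 47% (*Fancl*) to 63.3% (*Fancg*) against a median of 52.7% over all windows. *Fancl* held 3 CpG dinucleotides and the other 8 held 13 to 26, against a median of 7. The RefSeq start that set the window lay away from the GENCODE start in some members. The distance was 949 bases for *Fancl*, 409 for *Fanci*, 205 for *Fancg*, 65533 for *Fancc* and 11 for *Fance*. Whether these windows hold the promoter in use was not tested. The genes called lower and those not called both included windows with CCAAT.

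Markers of the states followed the labels. All 8 naïve markers were called lower in primed cells at both passages, and all 6 primed markers higher. The pluripotency markers *Pou5f1* and *Sox2* were called lower as well, at −1.72 and −1.28 in log2 at P5 and −0.35 and −1.66 at P15. In primed cells *Pou5f1* was at 211 CPM at P5 and 598 CPM at P15. The part of this in the levels of the members was not tested. *Cer1*, *T*, *Otx2*, *Zfp42* and *Nr0b1* had 0 counts in the MEF library. *Klf4*, *Klf2* and *Tbx3* were at 57.6, 44.6 and 42.1 CPM there, above their primed means at both passages. The remaining markers of the states were at 0.0851 (*Dppa3*) to 3.66 CPM (*Dnmt3b*) in MEFs. Total counts were 14378051 to 20985136 in naïve and primed libraries and 25646547 in MEFs, and every member was counted far above the 3 counts (0.128 to 0.221 CPM by library) that a count of 0 allows, a limit that covers counting error only. Libraries of a group varied little, with a biological coefficient of variation of 3.26% in the P5 fit and 4.79% in the P15 fit, and falls of well under 2-fold were therefore called. In bulk RNA, fewer expressing cells and less RNA per cell cannot be told apart.

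Per kb of annotated exons, *Fance* was the most abundant member in every group, at 12.9 ± 0.559 CPM per kb in naïve cells at P5, 11.2 ± 0.499 in primed cells at P5, 12.3 ± 0.469 and 11.6 ± 0.285 in naïve and primed cells at P15, and 10.2 in MEFs. In naïve cells *Fanci* and *Fancd2* followed, at 9.18 ± 0.599 and 8.88 ± 0.0437 CPM per kb at P5, where their libraries overlapped, and at 8.01 ± 0.375 and 6.44 ± 0.321 at P15, where they did not. In primed cells *Fancd2* was next after *Fance*, at 5.23 ± 0.206 at P5, above *Fanci* at 3.90 ± 1.03. At P15 *Fanci* had come down to 2.69 ± 0.411 CPM per kb, the same mean as *Fancb* at 2.69 ± 0.238. *Fancc* was the least abundant member per kb in all 5 groups, between 0.977 (MEFs) and 1.63 (naïve, P5). The length was the union of all annotated exons, 8.359 kb for *Fancc* and 1.691 kb for *Fancf*, and the order depends on it. By CPM alone in naïve cells at P5, *Fancc* at 13.7 was above *Fancb* at 6.92 and *Fancf* at 5.33. *Fance*, at 41.0 CPM, was below *Fancd2* at 70.5 CPM in that group. Neighbours in the order whose libraries overlapped were also *Fancl* and *Fancm*, and *Fancg*, *Fancf* and *Fanca*, in naïve cells at P5. In primed cells at P5 they were *Fanci*, *Fancf* and *Fancg*. At P15 they were *Fancf* and *Fancm*, and *Fancg* and *Fanca*, in naïve cells, and *Fancd2* and *Fancf*, *Fanci*, *Fancb* and *Fancg*, and *Fancm* and *Fanca* in primed cells.

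**Figure D1:**
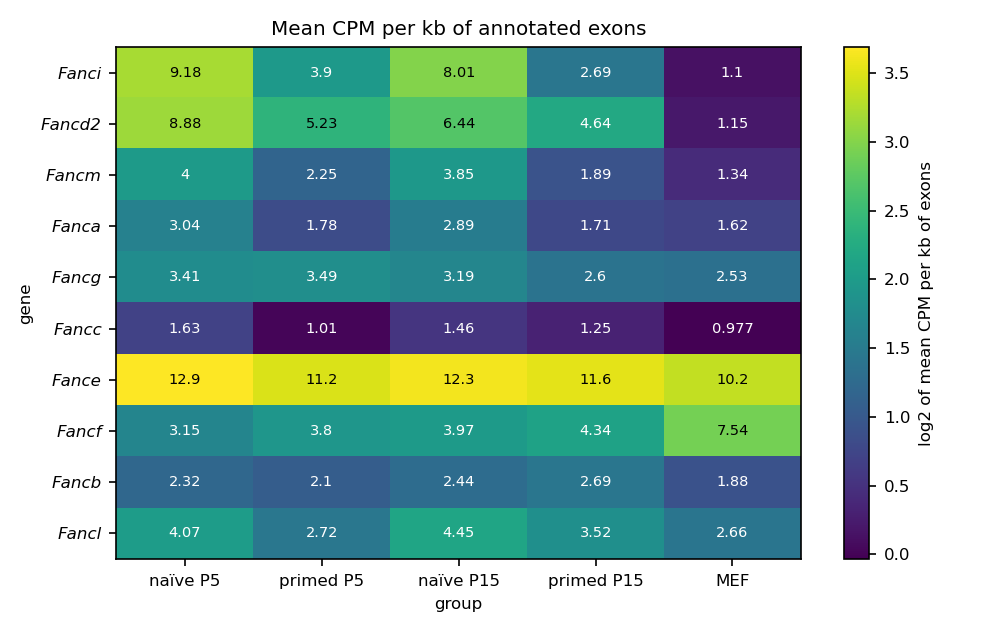
Mean CPM per kb of annotated exons for the 10 genes (rows) in the 4 groups of cultures (n = 2 each) and in MEFs (n = 1), with colour on a log2 scale and the mean printed in each cell. *Fance* is bright in all 5 columns, whereas *Fanci* falls from 9.18 to 3.90 at P5 and from 8.01 to 2.69 at P15.

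The clamp genes are *Fancd2* (ENSMUSG00000034023, GRCm38 chromosome 6, 113531682 to 113597017) and *Fanci* (ENSMUSG00000039187, chromosome 7, 79391929 to 79450264), whose proteins form the pair that the core complex ubiquitinates. *Fanci* was at 50.6 and 55.5 CPM in the naïve libraries and 26.7 and 18.3 CPM in the primed libraries at P5, and at 44.7 and 47.8 CPM against 17.2 and 13.9 CPM at P15. All 4 primed libraries lay below all 4 naïve ones, and the primed libraries at P5 were the farthest apart, with 22.5 ± 5.96 CPM (SD, n = 2). The log2 fold changes of −1.19 ± 0.096 (P5) and −1.59 ± 0.10 (P15) had adjusted p-values of 3.71e-12 and 5.35e-16 by edgeR's quasi-likelihood test. *Fancd2* was at 70.3 and 70.8 CPM in naïve and 42.6 and 40.3 CPM in primed libraries at P5. At P15 it was at 49.3 and 53.0 CPM against 38 and 35.7 CPM, so that the naïve level had come closer to the primed one. Its log2 fold changes were −0.73 ± 0.058 (P5, adjusted p = 2.23e-12) and −0.48 ± 0.083 (P15, adjusted p = 4.02e-06, same test). The primed level of *Fancd2* was 58.8% of the naïve level at P5 and 72.1% at P15.

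*Fancm* (ENSMUSG00000055884, chromosome 12, 65075603 to 65132058) encodes the DNA translocase that anchors the core complex to chromatin. It was at 44.1 and 39.5 CPM in naïve and 23.4 and 23.5 CPM in primed libraries at P5, and at 40.7 and 39.7 CPM against 19.0 and 20.5 CPM at P15. Primed cells thus held 56.1% of the naïve level at P5 and 49.0% at P15, with no overlap between libraries. The log2 fold changes of −0.80 ± 0.077 (P5) and −1.04 ± 0.097 (P15) had adjusted p-values of 1.67e-10 and 9.48e-12 by edgeR's quasi-likelihood test. *Fancm* and *Fanci* were the 2 members called lower by at least 2-fold at P15, as 11% of all genes tested were. At P5 *Fanci* alone was, against 8.85% of all genes.

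FANCM binds DNA with FAAP24 and with the histone-fold proteins encoded by *Cenps* and *Cenpx*. *Cenpx* was at 30.1 ± 2.52 CPM in naïve and 15.4 ± 0.252 CPM in primed cells at P5, and at 31.4 ± 0.504 and 20.6 ± 0.914 CPM at P15 (SD, n = 2 each), and it fell at both passages (log2 fold changes −0.94 ± 0.092 and −0.61 ± 0.10, adjusted p = 2.57e-10 and 2.01e-06). *Cenps* fell as well, with log2 fold changes of −0.61 ± 0.11 and −0.44 ± 0.12 (adjusted p = 1.23e-05 and 0.00217). *Faap24* fell at P5, from 14.4 ± 0.542 to 7.79 ± 0.656 CPM (adjusted p = 6.46e-07). At P15 it was at 17.2 ± 0.944 and 14.3 ± 0.140 CPM, not past the threshold (adjusted p = 0.0477). FANCM also recruits the BLM complex, which dissolves joined DNA strands. In that complex the helicase gene *Blm* fell at both passages (log2 fold change −0.58 each, adjusted p = 1.80e-11 and 4.97e-09), as did *Rmi2* (−1.15 ± 0.15 and −0.56 ± 0.16, adjusted p = 1.28e-07 and 0.00258). *Rmi1* was at −0.11 ± 0.083 at P5 (adjusted p = 0.234) and fell at P15 (−0.43 ± 0.10, adjusted p = 0.000447). In all, 2 of the 4 genes of the BLM complex were lower at P5 and 3 at P15, beside 31.1% and 28.4% of all genes.

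**Figure D2:**
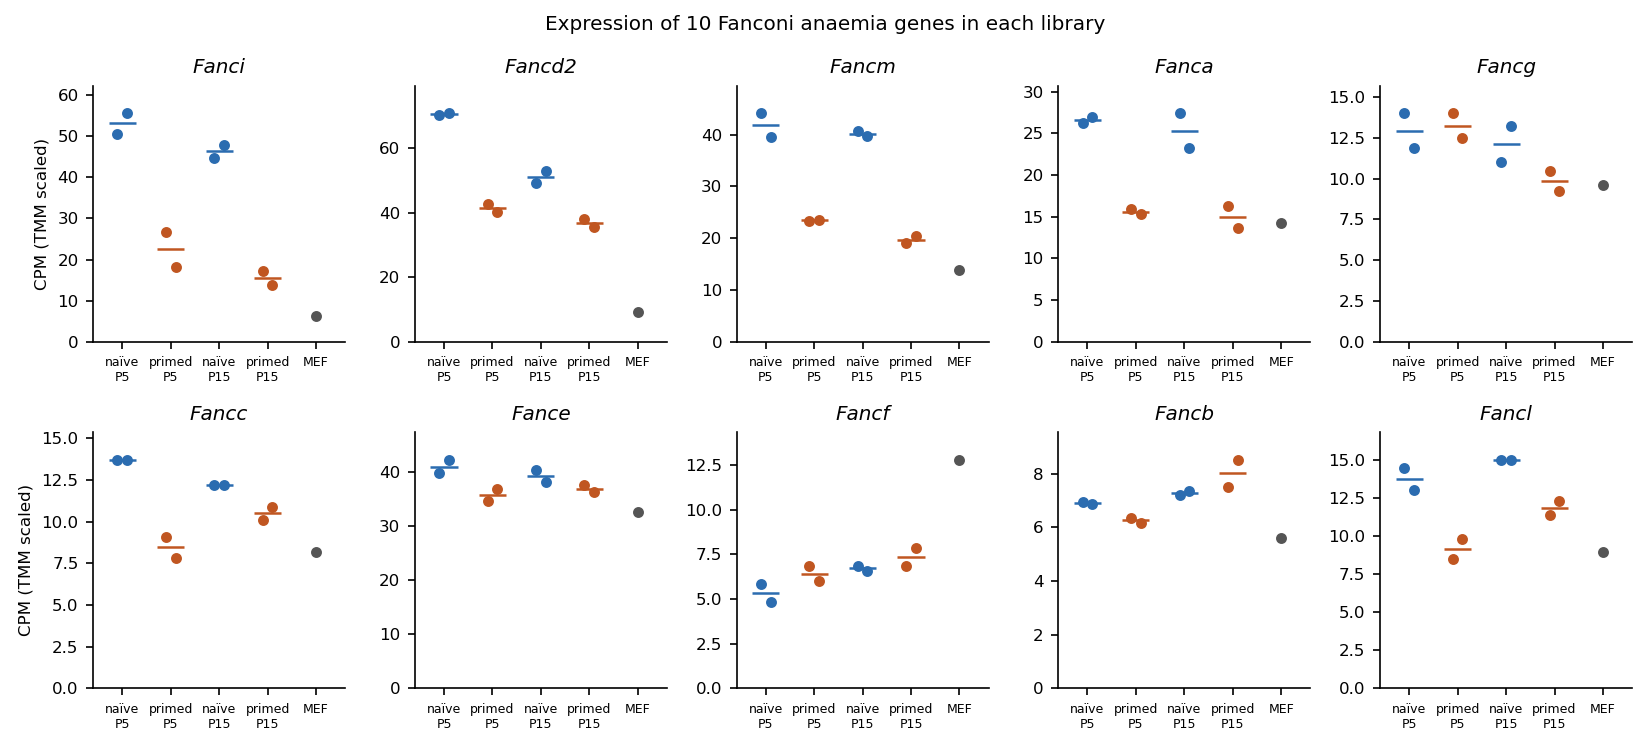
TMM-scaled CPM of each of the 10 genes by library (points; the 2 libraries of a group side by side, MEF with 1) with the group mean as a line, each axis starting at 0. In the panels of *Fanci*, *Fancd2*, *Fancm*, *Fanca*, *Fancc*, *Fancl* and *Fance* every primed library lies below every naïve library. *Fancg* overlaps at P5 and *Fancf* is highest in MEFs.

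In the core complex, FANCA and FANCG form a module with FAAP20. *Fanca* (ENSMUSG00000032815, chromosome 8, 123268300 to 123318576) was at 26.2 and 27.0 CPM in naïve and 15.9 and 15.3 CPM in primed libraries at P5. At P15 it was at 27.4 and 23.2 CPM against 16.3 and 13.6 CPM. The primed level was 58.4% and 59.1% of the naïve level, nearly the same at both passages, and close to the 14.2 CPM of MEFs. *Fanca* fell by a log2 fold change of −0.74 ± 0.091 (P5, adjusted p = 2.50e-08) and of −0.77 ± 0.12 (P15, adjusted p = 9.43e-07, edgeR's quasi-likelihood test). *Fancg* (ENSMUSG00000028453, chromosome 4, 43002343 to 43010506) was at 14 and 11.9 CPM in naïve and 14 and 12.5 CPM in primed libraries at P5, where the states overlapped (log2 fold change 0.068 ± 0.12, adjusted p = 0.619). At P15 the primed libraries, at 10.5 and 9.26 CPM, lay below the naïve ones at 11 and 13.2 CPM, and the difference was not past the threshold (−0.31 ± 0.15, adjusted p = 0.0704). *Faap20* was higher in primed cells at P5 (0.35 ± 0.086, adjusted p = 0.000637) and not past the threshold at P15 (0.31 ± 0.11, adjusted p = 0.0134), and among the 6 partner genes of the core complex it was the only one called higher at P5.

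FANCC, FANCE and FANCF form the module that holds the clamp against the ligase. *Fancc* (ENSMUSG00000021461, chromosome 13, 63285043 to 63497278) was at 13.7 CPM in both naïve and at 9.09 and 7.82 CPM in the primed libraries at P5. At P15 both naïve libraries were at 12.2 CPM and the primed libraries at 10.1 and 10.9 CPM. The primed libraries were lower at both passages, past the threshold at P5 (log2 fold change −0.66 ± 0.13, adjusted p = 3.53e-05) and not at P15 (−0.23 ± 0.14, adjusted p = 0.154, edgeR's quasi-likelihood test). *Fance* (ENSMUSG00000007570, chromosome 17, 28313519 to 28326572) was at 39.8 and 42.3 CPM against 34.7 and 36.9 CPM at P5, and at 40.4 and 38.2 CPM against 37.6 and 36.4 CPM at P15. The primed libraries lay slightly below the naïve ones both times, with 87.3% and 94.1% of the naïve mean, and neither difference passed (adjusted p = 0.0325 and 0.329). *Fancf* (ENSMUSG00000092118, chromosome 7, 51860577 to 51862267), a gene of 1 annotated transcript, was at 5.82 and 4.85 CPM in naïve and 6.86 and 5.99 CPM in primed libraries at P5. At P15 it was at 6.85 and 6.59 CPM against 6.83 and 7.84 CPM. It was the only member whose log2 fold change was above 0 at both passages (0.30 ± 0.17 and 0.12 ± 0.18), and neither value passed (adjusted p = 0.115 and 0.586).

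FANCB and the ligase subunit FANCL form the catalytic module with FAAP100. *Fancb* (ENSMUSG00000047757, chromosome X, 164980592 to 164997272) was at 6.96 and 6.88 CPM in naïve and 6.36 and 6.16 CPM in primed libraries at P5. At P15 the primed libraries, at 7.52 and 8.52 CPM, lay above the naïve ones at 7.22 and 7.35 CPM. Neither difference passed (log2 fold change −0.11 ± 0.16 and 0.13 ± 0.17, adjusted p = 0.533 for both). *Fancl* (ENSMUSG00000004018, chromosome 11, 26386135 to 26471876) was at 14.5 and 13.0 CPM against 8.50 and 9.82 CPM at P5 and at 15 CPM in both naïve libraries against 11.4 and 12.3 CPM at P15. It fell at P5 (−0.55 ± 0.13, adjusted p = 0.000274) and was not past the threshold at P15 (−0.35 ± 0.13, adjusted p = 0.0226, edgeR's quasi-likelihood test). The P5 call of *Fancl* was lost without primed P5 replicate 1 (−0.43, adjusted p = 0.0262) and with library size in place of TMM scaling (−0.35, adjusted p = 0.0155). *Ube2t*, the conjugating enzyme that FANCL works with, was at 33.7 ± 2.90 and 29.2 ± 0.266 CPM at P5 (adjusted p = 0.0437) and fell from 26.2 ± 0.584 to 17.8 ± 0.761 CPM at P15 (log2 fold change −0.57 ± 0.11, adjusted p = 2.16e-05). *Faap100* was at −0.28 ± 0.10 and −0.16 ± 0.13 (adjusted p = 0.0162 and 0.279). Of the 6 partner genes, 3 were lower and 1 higher at P5, and 3 were lower and none higher at P15. The shares of all genes were 31.1% lower and 31.2% higher at P5, and 28.4% and 28.2% at P15.

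**Figure D3:**
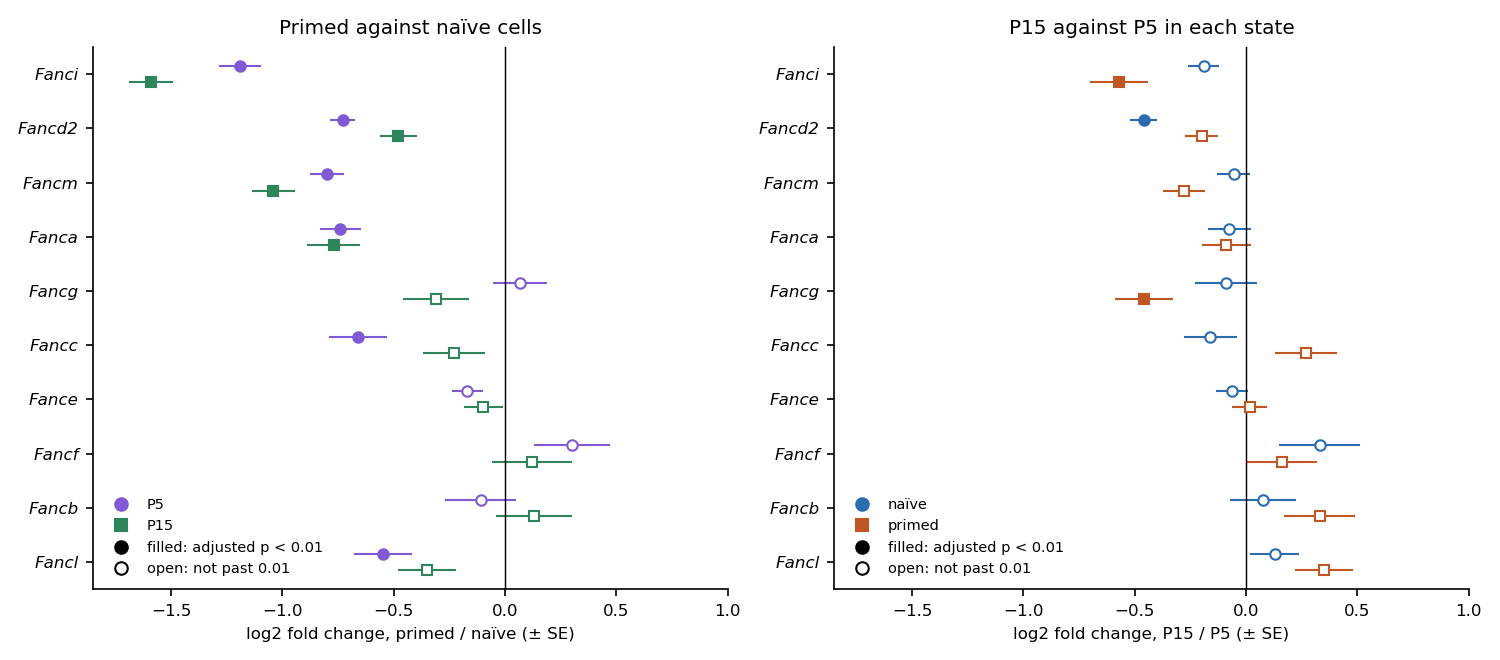
Log2 fold changes with standard errors of the 10 genes, for primed against naïve cells at each passage (left) and for P15 against P5 in each state (right), with filled symbols past an adjusted p of 0.01 (edgeR, 2 libraries per group). On the left the filled points all lie below 0, from −0.48 (*Fancd2*, P15) to −1.59 (*Fanci*, P15), and on the right only *Fancd2* in naïve cells and *Fanci* and *Fancg* in primed cells are filled.

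Over the 10 members the median log2 fold change was −0.61 at P5 and −0.33 at P15, beside a median over all genes tested of 0.0078 and −0.0039. In 8 of the 10, both primed libraries lay below both naïve ones, at P5 and again at P15, as did 43.6% and 40.2% of all genes tested. The exceptions at P5 were *Fancf* (above) and *Fancg* (overlapping), and at P15 *Fancb* (above) and *Fancf* (overlapping). At an unadjusted p under 0.05 the number of members was 7 at P5 and 6 at P15, which is near or below the background of 73% and 68.6% of all genes.

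Between P5 and P15, *Fancd2* was the only member called in naïve cells. It fell from 70.5 ± 0.347 to 51.2 ± 2.55 CPM (SD, n = 2 each), or −0.46 ± 0.060 in log2 (adjusted p = 0.000196, edgeR's quasi-likelihood test), and 5.01% of all genes were called lower in this comparison. The other 9 had log2 fold changes of −0.19 (*Fanci*) to 0.33 (*Fancf*). In primed cells *Fanci* fell from 22.5 ± 5.96 to 15.5 ± 2.37 CPM (−0.57 ± 0.13, adjusted p = 0.000556) and *Fancg* from 13.2 ± 1.01 to 9.88 ± 0.878 CPM (−0.46 ± 0.13, adjusted p = 0.00325), while 22.8% of all genes were called lower and 24.3% higher. Neither call held without primed P5 replicate 1, where *Fanci* was at −0.29 (adjusted p = 0.0917) and *Fancg* had an adjusted p of 0.0482. *Fancg* was also lost without primed P15 replicate 2 (adjusted p = 0.0321). DESeq2's Wald test called neither (adjusted p = 0.126 for *Fanci* and 0.0368 for *Fancg*). *Fancl*, *Fancb* and *Fancc* had both P15 primed libraries above both P5 ones, at 130%, 128% and 124% of the P5 level, as did 41.6% of all genes, and none of these passed (adjusted p = 0.0276, 0.0769 and 0.0946).

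Whether the effect of the primed state differed between the passages was tested over 16926 genes in the 8 naïve and primed libraries. None of the 10 members was called by edgeR's quasi-likelihood test or by DESeq2's Wald test, against 24.1% of all genes by the former, and 3 had an unadjusted p under 0.05, against 42.9% of all genes. These 3 were *Fancc* (difference of the log2 fold changes 0.44 ± 0.19, adjusted p = 0.0656), *Fanci* (−0.37 ± 0.16, adjusted p = 0.0701) and *Fancd2* (0.26 ± 0.099, adjusted p = 0.0377). The difference was −0.36 ± 0.19 for *Fancg* (adjusted p = 0.147), and the other 6 lay between −0.22 and 0.26. Without primed P5 replicate 2, *Fanci* passed at −0.64 (adjusted p = 0.00182), in a fit that assumes the lone library to vary like the other groups. The loss of the *Fancc* and *Fancl* calls at P15 was therefore not shown to be a difference between the passages.

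In the MEF library *Fancf* was the only member above all 8 naïve and primed libraries, at 12.8 CPM, and *Fanci* (6.34 CPM) and *Fancd2* (9.14 CPM) were farthest below them. The naïve level at P5 was 8.37 times that of MEFs for *Fanci* and 7.71 times for *Fancd2*, and 3.55 and 4.54 times in primed cells. For *Fancm* (13.9 CPM in MEFs) the naïve and primed ratios at P5 were 3 and 1.68, and for *Fanca* 1.88 and 1.10. Among all genes tested, 31.1% were called lower and 31.2% higher in primed cells at P5, and 28.4% and 28.2% at P15. Of 20 fibroblast markers, 10 were lower and 5 higher in primed than in naïve cells at P5, and 6 lower and 9 higher at P15. Their summed level was 7722 to 7762 CPM in naïve and 4768 to 4875 CPM in primed libraries at P5, 13630 to 14210 and 11940 to 12270 CPM at P15, and 72390 CPM in MEFs, and none of the 20 was at 0 in any library. The median marker stood at 16.8% to 17.0% (naïve) and 13.1% to 15% (primed) of its MEF level at P5 and at 20.1% and 24.9% to 25.5% at P15, though single markers ran from 2.51% (*Acta2*) to 354% (*Dcn*), both in primed cells at P15. With that share of the MEF counts taken off, 6 members were called lower at P5 and 4 at P15, as without it, and 0 in place of 2 between the passages in primed cells.

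Exons of 8 members overlap a gene on the opposite strand, and the library kit does not mark strand, so that reads there cannot be told apart. The overlap was 16% of the exon bases of *Fanci* with *Polg*, 15% of *Fancf* with *Gas2*, 13.7% of *Fancl* with *Vrk2* and 10.5% of *Fanca* with *Zfp276*. None of these 4 neighbours was lower in primed cells at P5: *Polg* (0.32, adjusted p = 5.75e-06) and *Zfp276* (0.75, adjusted p = 0.000143) were higher, and *Vrk2* and *Gas2* were at 0.41 and 0.091 (adjusted p = 0.0421 and 0.370). At P15 *Gas2* was called lower (−0.44, adjusted p = 0.00116) and *Zfp276* and *Vrk2* higher (0.60 and 0.68, adjusted p = 0.00681 and 0.00357), with *Polg* at 0.011 (adjusted p = 0.899). *Gas2*, a microfilament gene known for its expression in growth-arrested fibroblasts, was at 93.0 CPM in MEFs and 17.0 to 22.8 CPM in the 4 groups of naïve and primed cells, and its part in the MEF level of *Fancf* was not tested. For *Fancc* the overlap was 16.4% with the antisense gene *Gm16133*, which was below 0.5 CPM, and 2.21% with *2010111I01Rik*. Those of *Fancd2*, *Fance* and *Fancm* came to 5.51% or less with any 1 gene, and *Fancb* and *Fancg* had none.

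Downstream of the clamp, the list of Fanconi anaemia genes of recombination and nuclease recruitment had 7 of 10 members lower at P5 and 6 at P15, with none higher and medians of −0.41 and −0.33. *Rad51c*, a gene of homologous recombination, fell at both passages (−0.75 ± 0.11 and −1.24 ± 0.15, adjusted p = 8.12e-07 and 2.78e-09). *Brca2* (*Fancd1*) went from 78.8 ± 2.70 to 37.7 ± 0.406 CPM at P5 and from 78.2 ± 0.438 to 31.9 ± 0.378 CPM at P15, a larger fall than that of any of the 10 members except *Fanci*. *Brca1* had log2 fold changes of −0.90 and −0.91 (adjusted p = 5.30e-16 and 6.87e-14), and the ubiquitin ligase gene *Rfwd3* of −0.44 and −0.21 (adjusted p = 2.23e-10 and 0.00444). The genes of the deubiquitinase, other nucleases and translesion polymerases were mixed, with 5 of 9 lower and 2 higher at P5 and 4 lower and 1 higher at P15. Of all genes, 31.1% were called lower and 31.2% higher at P5, and 28.4% and 28.2% at P15. Whether these short lists differed from that background was not tested.

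*Usp1*, whose product takes the ubiquitin off FANCD2, fell from 128 ± 3.57 to 59.2 ± 1.89 CPM at P5 and from 145 ± 7.87 to 93.5 ± 3.57 CPM at P15 (log2 fold changes −1.08 ± 0.048 and −0.64 ± 0.066, adjusted p = 4.07e-18 and 1.04e-10). Its cofactor gene *Wdr48* was at −0.019 and 0.10 and was not called. *Slx1b*, a nuclease subunit gene that shares exon bases with *Bola2* and *Gm6939*, fell at both (−1.0 ± 0.12 and −1.19 ± 0.14, adjusted p = 1.70e-08 and 2.67e-09). *Ercc1*, of the XPF nuclease, fell at P5 (−0.58 ± 0.097, adjusted p = 4.99e-06) and was at −0.030 ± 0.11 at P15 (adjusted p = 0.828). *Rev1*, of translesion synthesis, fell at both (−0.44 ± 0.074 and −0.68 ± 0.11, adjusted p = 6.03e-06 and 1.17e-06), with 26.6% of its exon bases shared with *Eif5b*. The genes called higher were *Mus81*, a nuclease gene, at both passages (0.38 and 0.46, adjusted p = 0.00449 and 0.00315), and *Rev3l*, the catalytic subunit gene of polymerase zeta, at P5 (0.25 ± 0.062, adjusted p = 0.000931). At P15 *Rev3l* was called lower (−0.36 ± 0.086, adjusted p = 0.000371).

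**Figure D4:**
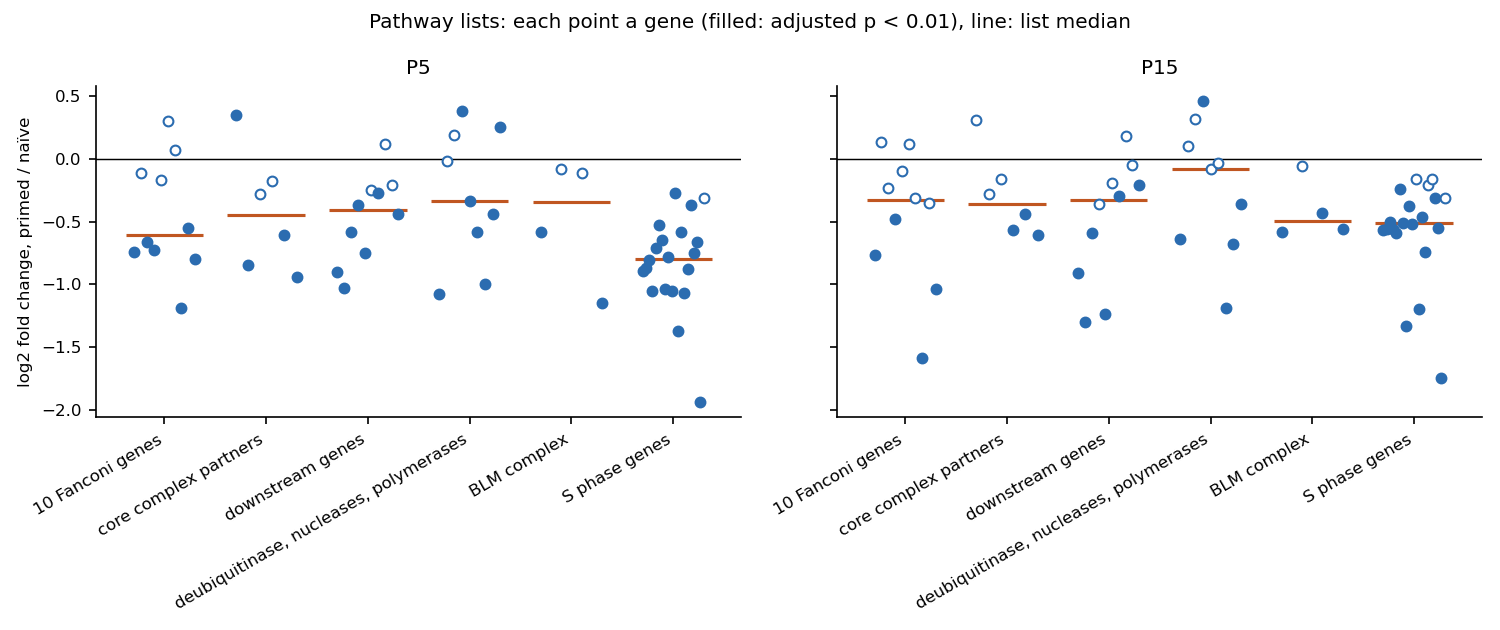
Log2 fold changes of primed against naïve cells at P5 (left) and P15 (right) for each gene (points, filled past an adjusted p of 0.01 by edgeR) of the 10 members, their pathway lists and 20 S phase genes, with the list median as a line. The medians at P5 run from −0.34 (deubiquitinase, nucleases and polymerases) to −0.80 (S phase genes), and all 20 S phase genes lie below 0 at both passages.

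Genes of S phase entry and DNA replication, the cell cycle stage in which the pathway acts, were lower in primed cells in the same comparisons. At P5 19 of 20 were called lower and none higher, with a median of −0.80, and at P15 16 and none, with a median of −0.52. Of all genes, 31.1% were called lower and 31.2% higher at P5, and 28.4% and 28.2% at P15. The summed level of the S phase genes was 4197 to 4208 CPM in naïve and 2269 to 2292 CPM in primed libraries at P5, and 4219 to 4230 and 2778 to 2845 CPM at P15, and none was at 0 in any library. Examples are the cyclin gene *Ccne1* (−1.94 and −1.75), the nucleotide reductase gene *Rrm2* (−1.07 and −0.74), the helicase subunit gene *Mcm5* (−1.05 and −0.56), the licensing factor gene *Cdt1* (−1.04 and −1.33) and the polymerase gene *Pola1* (−1.37 and −1.20). The summed level of the 10 members was 285.3 to 285.8 CPM in naïve and 176.7 to 188.1 CPM in primed libraries at P5, and 254.8 to 256.3 and 168.8 to 174.6 CPM at P15. From P5 to P15 in primed cells 14 of the 20 S phase genes were called higher and 1 lower, whereas no member was called higher. Of all genes, 24.3% were called higher and 22.8% lower in this comparison. The part of the S phase genes' fall in that of the members was not tested.

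Across the 8 naïve and primed libraries the members that fell at both passages had the highest correlations with each other. They had been picked by their fall between the states in these same libraries, so that the correlations are not a separate finding. As a description, with libraries sharing state and passage, Pearson's r of log2(CPM + 1) was 0.958 between *Fanci* and *Fancm*, 0.953 between *Fanca* and *Fanci*, 0.952 between *Fanca* and *Fancm* and 0.918 between *Fancd2* and *Fanci*. The lowest values were r = −0.788 between *Fancf* and *Fancd2* and r = −0.753 between *Fancb* and *Fancg*. *Fancf* and *Fancb* were called in no comparison, so that these values rest partly on differences not separated from the spread between libraries. Among 10000 genes with a mean of at least 10 CPM, the genes most like *Fancd2* were *Ncapd2*, a condensin subunit gene (r = 0.9948), *Slc19a2*, a thiamine transporter gene (0.9941), and *Nup210*, of the nuclear pore (0.9934). The genes most like *Fanci* were *Cep192*, of the centrosome (0.9935), *Ntn4*, which encodes a netrin (0.9905), and *Clstn3*, which encodes a calsyntenin (0.9899). *Nup210* was at 75.8 CPM in naïve and 50.4 CPM in primed cells at P5, at 61.2 and 46.3 CPM at P15 and at 0.893 CPM in MEFs. *Cep192* was at 124 and 67.6 CPM at P5, at 109 and 55.6 CPM at P15 and at 34.9 CPM in MEFs.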

How the data were processed

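Poly(A) RNA of 9 libraries was sequenced on an Illumina HiSeq after preparation with a NEBNext Ultra kit. The authors used Cutadapt for trimming, HISAT2 for alignment to mm10 and featureCounts with an Ensembl annotation, and the deposited values are raw counts of reads for each gene. The annotation release and the treatment of strand and of reads with several alignments are not given in the sources used here. A further 92 spike-in entries with 0 counts were left out.

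Groups came from the sample titles. R 4.3.3, edgeR 4.0.16, limma 3.58.1 and DESeq2 1.42.0 were used. Each comparison used its own 4 libraries. Genes with 10 or more counts in 2 or more of them were kept, scaled by TMM and tested by edgeR's quasi-likelihood method. Adjustment followed Benjamini and Hochberg over the genes kept, and 0.01 was the threshold. All 8 naïve and primed libraries served to test the difference between passages. The code was tested on simulated counts. The MEF library entered no fit. Coordinates and exon lengths are from GENCODE M21 (GRCm38). A standard error is the log2 fold change divided by the square root of the F statistic.

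Members and lists were chosen with earlier results of these data known. Named are the 10 members, the 3 genes of each pathway list and of the S phase list with the smallest adjusted p at each passage, and the 3 genes most like *Fancd2* and *Fanci*. *Faap20*, *Faap100*, *Wdr48*, *Mus81*, *Rev3l*, the marker genes and the genes that overlap members, were picked after seeing their values. As alternatives, the fits were repeated with DESeq2's size factors and Wald test, library size alone, all genes unfiltered, 8 libraries fitted together, a replicate block, subtraction of the feeder share, and each library left out. A crossed block was added after seeing the data.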

Additional observations from a re-analysis of the deposited data

Results flagged for a closer look

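None of the 10 members had an effect of the primed state that differed between the passages by edgeR's quasi-likelihood test, and with 2 libraries per group no library could be tested as standing apart. Of the named genes of the pathway and S phase lists and the genes that overlap a member, 10 had a log2 fold change that differed between P15 and P5. In this comparison 24.1% of all genes were called. The difference was called in 1 of the 6 partner genes, 1 of the 10 downstream genes and none of the 4 genes of the BLM complex. For the 9 genes of the deubiquitinase, nucleases and polymerases it was called above 0 in 2 and below 0 in 1. Whether these counts differ from the share of all genes was not tested. In the pathway lists it was less negative at P15 for *Faap24* (difference 0.59, adjusted p = 0.00747), *Ercc1* (0.56, adjusted p = 0.00264), *Usp1* (0.46, adjusted p = 3.76e-05) and *Rfwd3* (0.25, adjusted p = 0.00862). *Rev3l* went from higher to lower in primed cells (−0.59, adjusted p = 2.48e-05). Over the whole S phase list, the difference was called above 0 for 10 of the 20 genes and below 0 for 1. Of the named S phase genes, the difference was 0.51 for *Mcm5* (adjusted p = 2.04e-07), 0.35 for *Rrm2* (adjusted p = 5.11e-05) and −0.27 for *Cdt1* (adjusted p = 0.00517). Of the genes that overlap a member on the other strand, it was 0.79 for *2010111I01Rik* beside *Fancc* (adjusted p = 1.54e-05) and −0.51 for *Gas2* beside *Fancf* (adjusted p = 0.0049).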

How the results depend on the processing

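At P15 the calls and directions of the members called held under all 12 alternatives, and at P5 under all but those named for *Fancl*. With library size alone the median log2 fold change of the members was −0.40 at P5 (with TMM −0.61), −0.22 at P15 (−0.33) and −0.17 between passages in primed cells (−0.036). That scaling moved the median of all genes by 0.203, 0.105 and −0.132, and the percentage of calls that were higher from 50.1 to 65.75 at P5, from 49.86 to 58.84 at P15, from 51.53 to 34.22 between passages in primed cells and from 54.99 to 35.16 for the difference between passages. It also turned the sign of the uncalled *Fancb* and *Fance* at P5 and of *Fance* at P15. With the feeder share subtracted the P5 median was −0.68. In primed cells, members called between passages numbered 2, and 0 with DESeq2's Wald test, 0 with the feeder share subtracted and 4 with library size alone. The cause was not tested.

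With each library left out, the number of members called was 5 to 7 at P5 (7 without naïve P5 replicate 1, which brought in *Fance* at −0.24, adjusted p = 0.00787), 4 at P15, 1 between passages in naïve cells, 0 to 3 between passages in primed cells (0 without primed P5 replicate 1) and 0 to 1 for the difference between passages (1 without primed P5 replicate 2). Over all genes, 1446 were called between passages in naïve cells, and 887 with the feeder share subtracted, 551 with no low-count filter and 2783 with the replicate block.

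Deviations of libraries with the same replicate number correlated at −0.127 (P5), −0.19 (P15), 0.161 (naïve) and 0.159 (primed) over 10001 genes. The labels tie no number to a shared culture or day, and the numbers were not taken as pairs. With the replicate block the members called were 6 at P5, 4 at P15, 1 in naïve and 3 in primed cells between passages. A crossed pairing, chosen after seeing the data, called 10675 genes at P5 and 9477 at P15, against 10274 and 8899 without a block. Depth limits *Fancb* and *Fancf* most, whose standard errors of 0.16 to 0.18 in log2 between states were the widest among the members.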
